A study of Mus musculus with 9 samples.

Results

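The 42 genes described here encode proteins of the synaptic vesicle and of regulated exocytosis, and all 42 were among the 18193 genes tested. They form a fixed list of gene names that used no measured value, though it was chosen with earlier results of these data known. A neuron stores transmitter in vesicles that dock at an active zone, become ready for release through priming factors, and fuse when calcium reaches a synaptotagmin and a SNARE bundle zippers together, after which the vesicle membrane is retrieved by endocytosis. The same neurons, and endocrine cells, store peptides in larger dense-core vesicles whose cargo includes the granins. In the auditory nerve this machinery is made by spiral ganglion neurons, which are glutamatergic and send processes to the hair cells and to the brainstem, while the nerve also holds Schwann cells, fibroblasts and macrophages.

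RNA was profiled on 9 Affymetrix mouse arrays from the auditory nerves of adult CBA/CaJ mice (8 to 12 weeks, males and females), with 3 arrays per group. Neurospheres were grown for 12 days in serum-free medium with EGF at 20 ng/ml, FGF at 10 ng/ml and heparin at 2 µg/ml. They started from cells that had first been cultured for 5 to 7 days in medium with 10% serum. Cultured cells came from dissociated nerve and had been kept 5 to 7 days in medium with 10% serum. Days in culture, serum and growth factors thus differed together between neurospheres and cultured cells and cannot be told apart. Tissue was the dissected nerve, taken without culture. No label states that the 3 samples within a group were separate animals or cultures, and the p-values therefore cover only sample-to-sample spread, part or all of which could be technical.

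Values are RMA signals on a log2 scale, 1 probe set per gene, and a signal can be compared between arrays but not between genes. A gene passed, and is said to have risen or fallen, at a Benjamini-Hochberg adjusted p under 0.05 in limma over all genes together with a fold change over 1.5. The summed linear signal of 10 neuron markers was 1148 to 1287 on neurosphere arrays, 902 to 960 on cultured cell arrays and 42329 to 47314 on tissue arrays, and the defining marker Rbfox3 was at 5.15 to 5.25 in neurospheres, 5.01 to 5.16 in cultured cells and 10.97 to 11.17 in tissue. Of the neuron markers 9 of 10 fell in each culture against tissue, of the glial markers 5 of 5, of the macrophage markers 4 of 5 and of the hair cell markers 3 of 5, while 5 of 6 fibroblast markers rose and none fell in neurospheres, and 3 rose and 1, Dcn, fell in cultured cells (-1.09). The marker sums of glia (5 genes) were 1583 to 1669, 2291 to 2805 and 38338 to 39748 in neurospheres, cultured cells and tissue, those of fibroblasts (6 genes) 54461 to 57497, 35182 to 40688 and 21563 to 24721, and those of macrophages (5 genes) 295 to 418, 336 to 445 and 2822 to 3069. Hair cell markers (5 genes) summed to 151 to 158 in neurospheres, 176 to 183 in cultured cells and 470 to 517 in tissue, and markers of central inhibitory or granule neurons (6 genes) to 152 to 174, 142 to 158 and 167 to 177. The 3′ probe set of the actin control exceeded its 5′ probe set by 0.70 ± 0.15 (log2) in neurospheres, 0.36 ± 0.037 in cultured cells and 2.71 ± 0.35 in tissue (SD, n = 3 each), so the tissue RNA was the most uneven along its length. The marker signals of neurons, glia, fibroblasts, macrophages and hair cells and this 3′ excess all move with the contrast of either culture with tissue. Their part in the results was not tested. In RNA from whole samples, fewer cells of a type, such as neurons or glia, and less RNA per cell cannot be told apart.

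Most of the vesicle release genes were far lower in both cultures than in nerve tissue. In neurospheres against tissue 36 of the 42 fell, 1 (Stx1a) rose and 5 did not pass, with a median log2 fold change of -4.01. Across all genes 21.0% fell and 21.7% rose in that comparison, and the median was 0.05. In cultured cells against tissue 36 fell, 1 (Rab3b) rose and 5 did not pass, with a median of -4.15. There the share of all genes that fell was 22.0% and the share that rose was 20.4%, with a median of -0.01. The members thus fell in 85.7% of cases and rose in 2.38% in each comparison. Both comparisons use the same 3 tissue arrays, so they are not independent of each other.

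The falls were large. In neurospheres against tissue 21 members fell by more than 4 on the log2 scale, 7 by more than 6 and 1, Cadps, by more than 8. In cultured cells against tissue 21 fell by more than 4, 8 by more than 6, and 2, Snap25 and Chgb, by more than 8. The group means of the 42 members had a median of 5.81 in neurospheres, 5.53 in cultured cells and 10.31 in tissue. A mean signal under 6.48, the level below which the dimmest 40% of genes lay, was found for 25 members in neurospheres, 27 in cultured cells and 5 in tissue. No detection call was used, so whether such low signals stood above background was not determined.

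**Figure D1:**
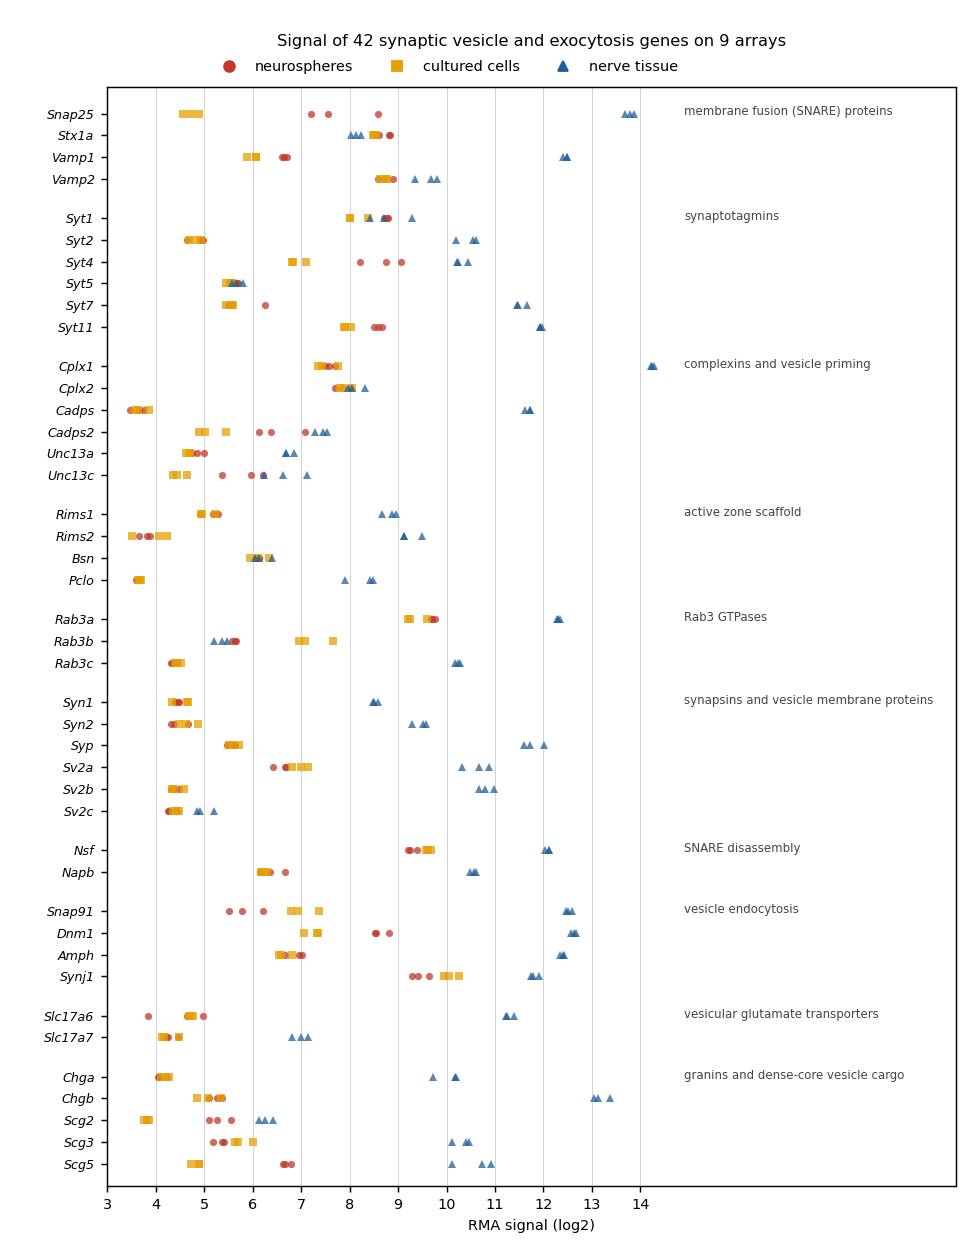
RMA signal (log2, horizontal axis) of each of the 42 genes on each array, with circles for neurospheres, squares for cultured cells and triangles for tissue, grouped by role; signals may be compared along a row, not between rows. In most rows the 3 triangles lie far to the right of the other points, and for Syt5, Cplx2 and Bsn the 3 groups run together.

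Among the SNARE proteins, the membrane fusion machinery itself, both directions were seen. Snap25, the SNARE of the presynaptic plasma membrane, was at 8.58, 7.21 and 7.55 in neurospheres, 4.72, 4.56 and 4.90 in cultured cells and 13.68, 13.87 and 13.79 in tissue. The 3 groups did not overlap, neurospheres lay between the other groups, and the first neurosphere array was higher than the other neurosphere arrays. It fell by 6.0 ± 0.30 (log2, SE) in neurospheres against tissue (adjusted p = 3.03e-07, limma) and by 9.05 ± 0.11 in cultured cells against tissue (adjusted p = 4.35e-11, limma), the largest fall of any member in either comparison.

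Vamp1, the vesicle SNARE prominent in brainstem and spinal neurons, was at 6.60, 6.71 and 6.65 in neurospheres, 6.06, 5.89 and 6.07 in cultured cells and 12.49, 12.41 and 12.49 in tissue. The cultures were well below tissue and the neurosphere arrays lay just above those of cultured cells. Its log2 fold change was -5.81 in neurospheres and -6.46 in cultured cells, each against tissue. Vamp2, the other main neuronal vesicle SNARE, fell by only 0.89 in neurospheres and 0.90 in cultured cells (adjusted p = 0.000428 and 0.000105, limma), and neither call held when all of its probe sets were averaged (-0.32 and -0.20).

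Stx1a, the plasma membrane syntaxin that pairs with Snap25, went against its group. It was at 8.82, 8.84 and 8.61 in neurospheres, 8.48, 8.51 and 8.54 in cultured cells and 8.12, 8.24 and 8.03 in tissue, so both cultures lay above tissue on every array. Neurospheres exceeded tissue by 0.63 ± 0.10 (SE; adjusted p = 0.0006, limma), and cultured cells exceeded it by 0.38, under the fold threshold (adjusted p = 0.0033, limma). The call in neurospheres was lost without neurosphere array 2 (0.58) or tissue array 3 (0.58), where the fold change dropped just under 1.5. A dimmer probe set of Stx1a gave differences of 0.84 in neurospheres and 0.50 in cultured cells, each against tissue.

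Synaptotagmins are vesicle proteins with C2 domains, several of which bind calcium. In neurospheres against tissue 4 of the 6 fell, and in cultured cells against tissue 5 did. Syt7, a high-affinity calcium sensor, was at 6.25, 5.48 and 5.58 in neurospheres, 5.44, 5.58 and 5.60 in cultured cells and 11.66, 11.47 and 11.46 in tissue. The cultures overlapped each other and lay far below tissue, with log2 fold changes of -5.76 ± 0.19 and -5.99 ± 0.09 (SE) in neurospheres and cultured cells. Syt2, the fast calcium sensor of many hindbrain and auditory synapses, fell by 5.60 in neurospheres and 5.63 in cultured cells.

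Syt11, a synaptotagmin that does not bind calcium, was at 8.51, 8.66 and 8.58 in neurospheres, 7.90, 7.89 and 8.04 in cultured cells and 11.96, 11.92 and 11.92 in tissue, 3 groups without overlap. It fell by 3.35 in neurospheres and 4.0 in cultured cells against tissue. Syt4, found mainly on dense-core vesicles, was at 8.21, 9.06 and 8.76 in neurospheres, 7.10, 6.83 and 6.81 in cultured cells and 10.21, 10.44 and 10.23 in tissue, again without overlap. Its fall was 1.62 ± 0.20 in neurospheres and 3.38 ± 0.11 in cultured cells (SE).

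Syt1, the calcium sensor of fast release at forebrain synapses, was at 8.78, 8.70 and 8.79 in neurospheres, 8.39, 8.02 and 8.00 in cultured cells and 8.43, 9.29 and 8.72 in tissue. Tissue array 2 stood above the rest and the neurosphere values lay inside the range of tissue. Neurospheres differed from tissue by -0.05 ± 0.19 (SE; adjusted p = 0.829, limma). Cultured cells had a log2 fold change of -0.67 against tissue (adjusted p = 0.0148, limma), and that call was lost without tissue array 2 (-0.44), cultured cell array 2 (adjusted p = 0.0507, limma) or cultured cell array 3 (adjusted p = 0.0563, limma). With the mean of its 4 probe sets the difference was 0.13 (adjusted p = 0.337, limma), and 1 dimmer probe set rose by 0.75 in neurospheres and 0.71 in cultured cells. Syt5, another calcium-binding synaptotagmin, passed in no comparison: it was at 5.70, 5.62 and 5.68 in neurospheres, 5.58, 5.54 and 5.44 in cultured cells and 5.80, 5.65 and 5.56 in tissue.

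Complexins clamp and promote SNARE zippering, and the CAPS (Cadps) and Munc13 (Unc13) proteins prime vesicles. Cplx1, at 7.58, 7.49 and 7.70 in neurospheres, 7.76, 7.36 and 7.44 in cultured cells and 14.28, 14.22 and 14.23 in tissue, fell by 6.66 and 6.73 in neurospheres and cultured cells against tissue. Its relative Cplx2 passed in no comparison. It was at 7.71, 7.85 and 8.00 in neurospheres, 8.05, 7.85 and 7.79 in cultured cells and 8.31, 8.05 and 7.98 in tissue, with differences from tissue of -0.26 ± 0.12 and -0.21 ± 0.11 (SE).

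Cadps was at 3.48, 3.65 and 3.76 in neurospheres, 3.87, 3.57 and 3.64 in cultured cells and 11.62, 11.72 and 11.72 in tissue. The cultures overlapped each other near the bottom of the signal range, and the falls were 8.06 ± 0.10 in neurospheres (adjusted p = 3.74e-10, limma) and 7.99 ± 0.10 in cultured cells (SE). Its relative Cadps2 behaved otherwise, at 7.07, 6.38 and 6.12 in neurospheres, 4.90, 5.45 and 5.01 in cultured cells and 7.28, 7.46 and 7.53 in tissue. Neurospheres spread widely and came close to tissue, with a log2 fold change of -0.90 ± 0.22 (SE; adjusted p = 0.0061, limma), whereas cultured cells fell by 2.30. The call in neurospheres was lost with the unmoderated test named in the study's methods, used in place of limma (adjusted p = 0.0638).

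Unc13a fell by 1.87 and 2.07 in neurospheres and cultured cells. Unc13c, known from cerebellar synapses, was at 5.36, 5.96 and 6.20 in neurospheres, 4.35, 4.44 and 4.64 in cultured cells and 6.23, 7.11 and 6.63 in tissue. The highest neurosphere array nearly met the lowest tissue array. The fall in neurospheres, 0.82 ± 0.26 (SE; adjusted p = 0.0222, limma), was lost without neurosphere array 1 (adjusted p = 0.0578, limma), without tissue array 2 (0.0756) or tissue array 3 (0.0531), and after quantile normalization (0.111). The fall in cultured cells was 2.18 ± 0.19 (SE; adjusted p = 5.32e-06, limma).

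The active zone scaffold holds vesicles near calcium channels. Rims2, which links vesicles to the channels, was at 3.88, 3.66 and 3.82 in neurospheres, 3.51, 4.06 and 4.22 in cultured cells and 9.13, 9.49 and 9.12 in tissue. The cultures overlapped and tissue stood alone, with falls of 5.46 and 5.31 in neurospheres and cultured cells. Rims1 fell by 3.71 and 3.80, and Pclo, the very large scaffold protein piccolo, by 4.64 and 4.59.

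Bsn, the related scaffold bassoon, passed in no comparison with its brightest probe set, which read 6.07, 6.14 and 6.14 in neurospheres, 6.11, 5.95 and 6.34 in cultured cells and 6.04, 6.13 and 6.39 in tissue. Another of its 3 probe sets averaged 4.96 in neurospheres, 4.72 in cultured cells and 7.44 in tissue. That probe set fell by 2.48 and 2.73 (adjusted p = 2.82e-07 and 1.72e-08 over all probe sets, limma), so the result for Bsn depended on the probe set.

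Rab3 GTPases mark vesicles on their way to release. Rab3c was at 4.31, 4.33 and 4.45 in neurospheres, 4.39, 4.52 and 4.43 in cultured cells and 10.24, 10.27 and 10.17 in tissue, falls of 5.87 and 5.78. Rab3a, the most abundant Rab3 of brain, fell by 2.59 and 2.96. Rab3b, which is also found in endocrine and epithelial cells, was at 5.65, 5.57 and 5.63 in neurospheres, 7.66, 7.08 and 6.95 in cultured cells and 5.48, 5.37 and 5.19 in tissue.

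Rab3b was therefore highest on the 3 arrays of cultured cells, and its rise there against tissue was 1.88 ± 0.17 (SE; adjusted p = 6.61e-06, limma). Neurospheres exceeded tissue by 0.27, under the fold threshold (adjusted p = 0.0378, limma). Cultured cells held more Rab3b than tissue in every leave-one-out fit, and it was the only member that rose in them.

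All 6 synapsins and vesicle membrane proteins fell in neurospheres, and 5 of the 6 in cultured cells. Sv2b, a glycoprotein of the vesicle membrane, was at 4.38, 4.32 and 4.47 in neurospheres, 4.57, 4.38 and 4.35 in cultured cells and 10.78, 10.99 and 10.67 in tissue. Its falls were 6.42 and 6.38. Syp (synaptophysin), the classic marker of small vesicles, fell by 6.20 and 6.17, the synapsins Syn1 and Syn2, which tether vesicles to the cytoskeleton, by 4.08 and 5.00 in neurospheres and by 3.97 and 4.80 in cultured cells, and Sv2a by 4.03 and 3.65. Sv2c was low in every group, with means of 4.32, 4.42 and 4.98 in neurospheres, cultured cells and tissue. Its log2 fold changes were -0.67 in neurospheres, which did not hold without tissue array 2 (-0.56), and -0.56 in cultured cells, which did not pass.

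The ATPase Nsf and its adaptor beta-SNAP (Napb) take spent SNARE bundles apart. Napb was at 6.35, 6.15 and 6.66 in neurospheres, 6.29, 6.24 and 6.17 in cultured cells and 10.48, 10.57 and 10.60 in tissue, falls of 4.16 and 4.31. Nsf, which serves all membrane traffic, fell by 2.81 and 2.46. Both calls against tissue held in every alternative in which the genes were tested, but not in every single probe set. A dimmer probe set of Napb did not pass (0.00 in neurospheres and -0.16 in cultured cells), nor did a dimmer one of Nsf (0.03 and -0.23). Another of Nsf fell in neurospheres (-0.71) and did not pass in cultured cells (-0.35).

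The endocytic genes fell in both cultures. Snap91 (AP180), the clathrin assembly protein of nerve terminals, was at 5.52, 6.22 and 5.79 in neurospheres, 6.80, 6.94 and 7.36 in cultured cells and 12.51, 12.58 and 12.46 in tissue, falls of 6.68 and 5.48. Dnm1, the neuronal dynamin that cuts vesicles free, was at 8.52, 8.82 and 8.55 in neurospheres, 7.06, 7.34 and 7.34 in cultured cells and 12.67, 12.57 and 12.63 in tissue, falls of 3.99 and 5.38. The groups of each gene did not overlap, but the cultures stood in opposite order in Snap91 and Dnm1.

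Synj1, the lipid phosphatase that strips clathrin coats, was at 9.41, 9.64 and 9.28 in neurospheres, 10.25, 9.94 and 10.05 in cultured cells and 11.90, 11.78 and 11.74 in tissue, falls of 2.36 and 1.72. Of its 4 probe sets 3 fell in both comparisons and the dimmest rose by 0.78 and 0.59. Amph, the amphiphysin that bends membrane with dynamin, fell by 5.51 and 5.74.

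The vesicular glutamate transporters load vesicles with transmitter. Slc17a6 (VGLUT2) was at 3.84, 4.65 and 4.98 in neurospheres, 4.77, 4.69 and 4.73 in cultured cells and 11.24, 11.38 and 11.25 in tissue. Neurosphere array 1 was lowest, the cultures overlapped, and the falls were 6.80 ± 0.25 and 6.56 ± 0.08 (SE). Slc17a7 (VGLUT1), the transporter known from spiral ganglion neurons, fell by 2.68 and 2.72, with means of 4.30, 4.26 and 6.98 in neurospheres, cultured cells and tissue.

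The granins and the related dense-core vesicle proteins all fell in both cultures. Chgb, chromogranin B, was at 5.36, 5.27 and 5.09 in neurospheres, 5.34, 4.84 and 5.09 in cultured cells and 13.04, 13.13 and 13.38 in tissue, falls of 7.94 ± 0.12 and 8.09 ± 0.14 (SE; adjusted p = 6.64e-10 and 1.25e-10, limma). Chga, chromogranin A, fell by 5.92 and 5.84, and Scg3, a granin-binding protein of the vesicle membrane, by 5.00 and 4.54.

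Scg2, secretogranin II, was at 5.27, 5.09 and 5.56 in neurospheres, 3.75, 3.81 and 3.85 in cultured cells and 6.13, 6.26 and 6.41 in tissue, with no overlap of any groups. Its falls were 0.96 ± 0.13 in neurospheres and 2.46 ± 0.09 in cultured cells (SE). Scg5 (7B2), the chaperone of a prohormone convertase, was at 6.80, 6.66 and 6.63 in neurospheres, 4.74, 4.89 and 4.88 in cultured cells and 10.11, 10.73 and 10.93 in tissue, and fell by 3.89 and 5.75. Both genes thus lay between cultured cells and tissue in neurospheres.

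**Figure D2:**
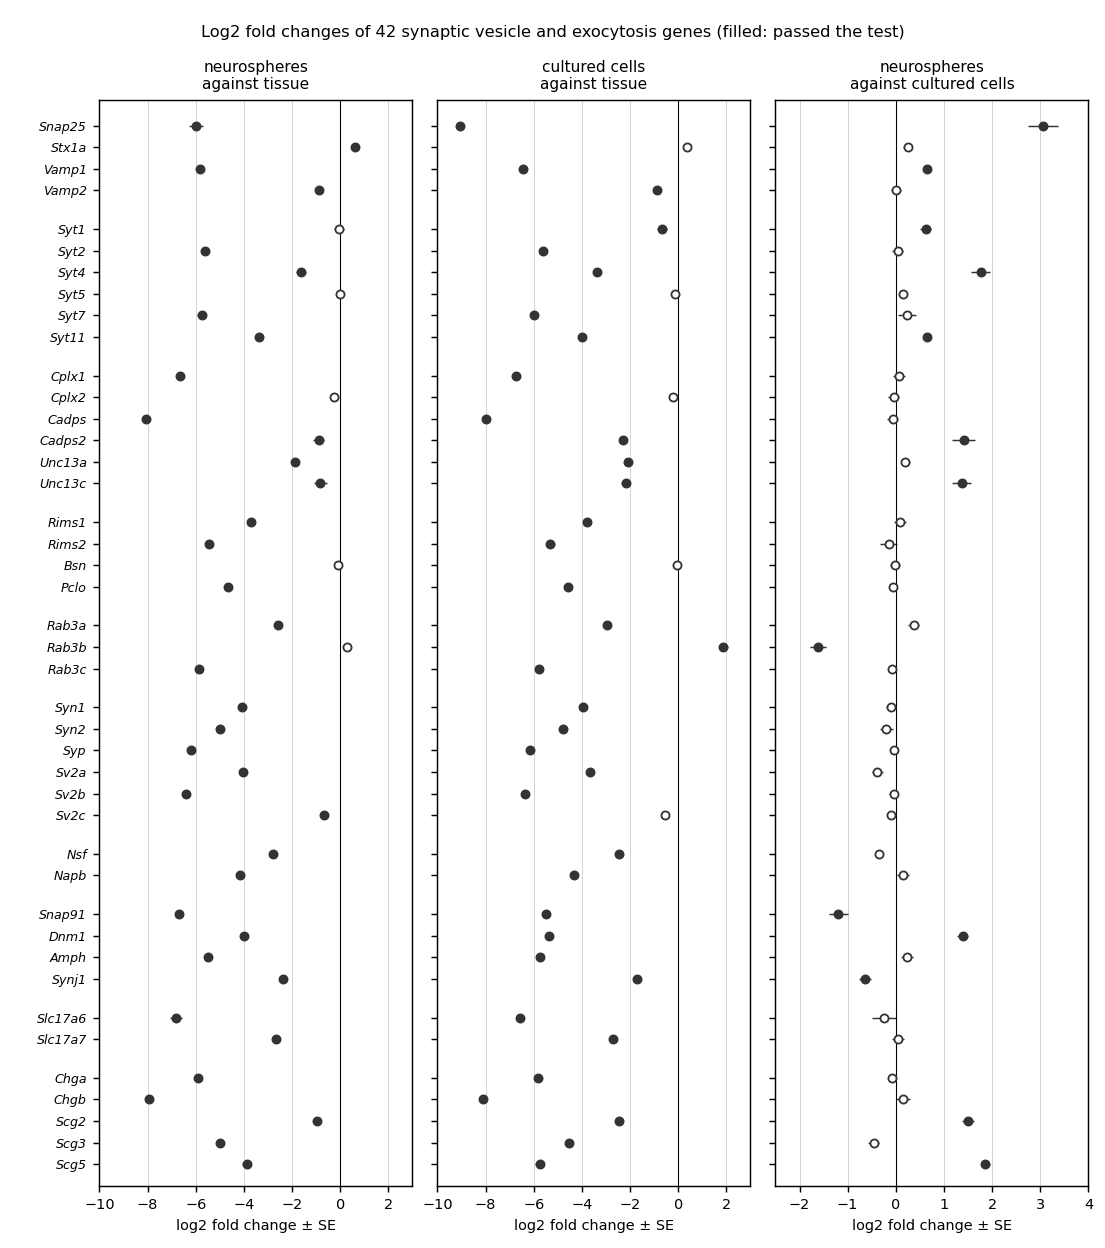
Log2 fold change with its SE (horizontal axis) of each of the 42 genes in the 3 comparisons, filled where the gene passed; the third panel has its own scale. Filled points lie left of 0 for 36 genes in each comparison with tissue, while 10 lie right and 3 left of 0 in neurospheres against cultured cells.

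Neurospheres and cultured cells, both low against tissue, differed from each other in a minority of the genes. In neurospheres against cultured cells 10 members rose, 3 fell and 29 did not pass, with a median of 0.04. Of all genes 9.0% rose and 8.91% fell, and the median was 0.05. The 13 that passed included no synapsin, no Sv2 gene, no glutamate transporter and no member of the active zone scaffold. Of these genes all but Sv2a had mean signals under 6.48 in both cultures, which limits what their absence can show.

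The largest difference was in Snap25, which was 3.06 ± 0.31 higher in neurospheres (SE; adjusted p = 0.000134, limma), and its 3 neurosphere arrays, given above, all exceeded 7. A dimmer probe set of Snap25 differed by 0.30, under the fold threshold (adjusted p = 0.0421 over all probe sets, limma). Scg5 was higher by 1.86 ± 0.09 (adjusted p = 2.92e-06, limma), Syt4 by 1.76 ± 0.20 (0.000264) and Scg2 by 1.5 ± 0.12 (4.33e-05). Scg5, Syt4 and Scg2 are proteins of dense-core vesicles. Of the other dense-core members Chga (-0.08) and Chgb (0.15) did not pass, and Scg3 was lower in neurospheres by 0.46, under the fold threshold (adjusted p = 0.0173, limma).

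Among priming and endocytic genes, Cadps2 was 1.41 ± 0.24 higher in neurospheres (adjusted p = 0.00246, limma), Dnm1 1.39 ± 0.12 (5.35e-05) and Unc13c 1.37 ± 0.20 (0.00102). A dimmer probe set of Dnm1 did not pass (0.35). Vamp1 (0.65), Syt11 (0.64) and Syt1 (0.62) rose by less, with fold sizes of 1.57, 1.56 and 1.54. These 3 calls stood close to the fold threshold, and all 3 were lost when arrays were centred on the hybridisation controls (0.50, 0.50 and 0.48). All 3 were also lost with the mean of each gene's probe sets (0.28, 0.39 and 0.145). The call of Syt1 was lost as well without cultured cell array 2 (0.56) or 3 (0.55).

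The 3 members lower in neurospheres were Rab3b (-1.61 ± 0.17; adjusted p = 0.000175, limma), Snap91 (-1.19 ± 0.20; adjusted p = 0.00217, limma) and Synj1 (-0.64 ± 0.12; adjusted p = 0.00403, limma; SE throughout). A dimmer probe set of Snap91 did not pass (-0.28). The call of Synj1 was lost without neurosphere array 3 (-0.56) or cultured cell array 1 (-0.55), and with the mean of its probe sets (-0.40). Of the 10 neuron markers 2 rose in the same comparison, Uchl1 by 1.39 and Nefm by 1.0, and 1, Map2, fell by 0.73. Rbfox3 differed by 0.11 and Tubb3 by 0.01. The part of neuronal RNA in the 10 rises was not tested.

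**Figure D3:**
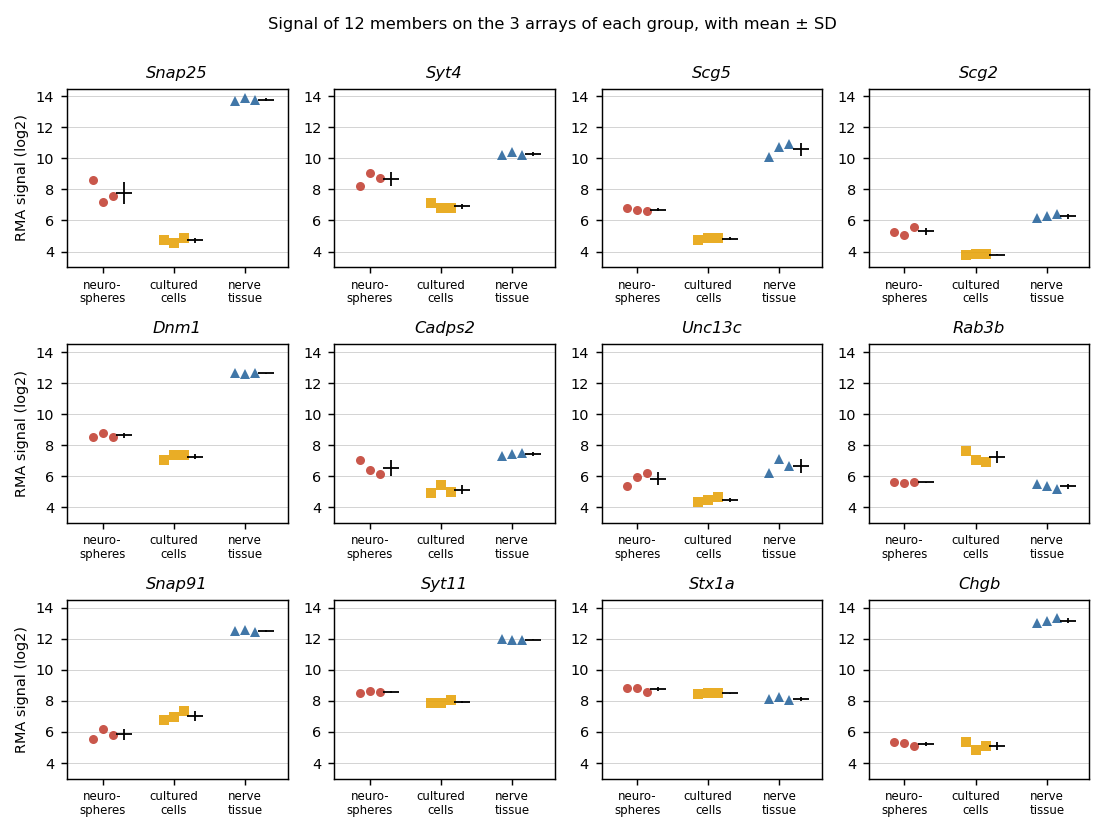
RMA signal (log2, vertical axis) of 12 genes on each of the 3 arrays of neurospheres, cultured cells and tissue, with the mean and SD as a bar to the right of each group. Neurospheres lie between cultured cells and tissue for genes such as Snap25, Syt4, Scg5 and Scg2, cultured cells are highest for Rab3b, and both cultures are near the bottom for Chgb.

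Promoter letters were read for the members, because granin and synapsin promoters are textbook examples of a cAMP response element (CRE) and of the site of the repressor REST, which silences neuronal genes outside neurons. RefSeq windows of GRCm38.p6, from 250 bases before to 50 after the annotated start, were found for 36 of the 42 members (45 windows). The palindromic CRE letters TGACGTCA occurred in the windows of 3 members, Chgb, Scg2 and Syn1, and in 588 of all 32851 windows (1.79%). Among vesicle traffic genes outside the list they occurred in Stxbp3, Sh3gl2, Napa, Ap2b1, Cltb, Pcsk1 and Slc18a2. In neurospheres against tissue Pcsk1 rose, Sh3gl2 and Cltb fell, and the others did not pass with their brightest probe sets. The letters TTCAGCACC, the left part of the REST site, were searched on both strands and occurred in Scg2, Syn1 and Unc13a, and in 122 of all windows (0.371%). The windows of Chgb (chr2:132781392-132781691, plus strand), Scg2 (chr1:79439977-79440276, minus strand) and Syn1 (chrX:20920869-20921168, minus strand) are shown because these 3 members hold the CRE letters. All 3 fell in both cultures, as did most members without the letters, and only Scg2 passed between the cultures. A link between the letters and the falls was not tested. Each window runs 5′ to 3′ along its gene, with the matched letters in capitals.
Chgb: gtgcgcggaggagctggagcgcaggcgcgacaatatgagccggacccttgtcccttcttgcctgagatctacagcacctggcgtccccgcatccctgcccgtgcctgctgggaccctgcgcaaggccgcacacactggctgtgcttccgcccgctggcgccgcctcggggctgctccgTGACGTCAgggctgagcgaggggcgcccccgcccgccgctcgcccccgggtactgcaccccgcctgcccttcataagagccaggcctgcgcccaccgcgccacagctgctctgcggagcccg
Scg2: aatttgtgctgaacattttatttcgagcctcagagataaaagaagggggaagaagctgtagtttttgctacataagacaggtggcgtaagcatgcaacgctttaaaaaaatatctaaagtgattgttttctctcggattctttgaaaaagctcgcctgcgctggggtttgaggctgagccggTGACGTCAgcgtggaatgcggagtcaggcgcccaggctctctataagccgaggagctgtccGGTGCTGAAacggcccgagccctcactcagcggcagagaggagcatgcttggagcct
Syn1: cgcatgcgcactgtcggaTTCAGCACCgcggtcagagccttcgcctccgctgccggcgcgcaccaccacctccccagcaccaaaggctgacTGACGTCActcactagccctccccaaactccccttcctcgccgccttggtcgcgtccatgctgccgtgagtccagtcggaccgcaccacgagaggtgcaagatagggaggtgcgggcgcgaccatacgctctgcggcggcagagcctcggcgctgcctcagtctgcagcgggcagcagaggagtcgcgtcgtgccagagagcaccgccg

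The CRE letters began 72 bases upstream of the start in Chgb, 68 in Scg2 and 159 in Syn1. The REST letters began 232 bases upstream in Syn1 and lay on the opposite strand in Scg2, starting 7 bases upstream. No 2 matches overlapped in these windows. A match is a description of letters and not a measured site. Against tissue, in neurospheres and in cultured cells, the log2 fold changes of these genes were -7.94 and -8.09 for Chgb, -0.96 and -2.46 for Scg2, and -4.08 and -3.97 for Syn1. The Syn1 probe set read 4.46, 4.48 and 4.40 in neurospheres, 4.65, 4.35 and 4.66 in cultured cells and 8.49, 8.58 and 8.51 in tissue, so the cultures overlapped there.

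Most of these neuronal proteins have a relative or partner of wider tissue expression, and 11 such pairs were measured. In neurospheres against tissue the neuronal member fell in 10 pairs and rose in 1, with a median of -3.71, whereas the partner fell in 1, rose in 6 and did not pass in 4, with a median of 0.62. In cultured cells against tissue the member fell in 10 and did not pass in 1 (median -3.80), and the partner fell in 3, rose in 3 and did not pass in 5 (median 0.29). Of all genes 21.7% rose and 21.0% fell in neurospheres, and 20.4% rose and 22.0% fell in cultured cells. The partners in cultured cells were thus near the shares of all genes in both directions. These pairs were also chosen with earlier results of these data known. The difference within a pair was not tested.

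Snap23, the SNARE that takes the place of Snap25 in non-neuronal cells, was at 9.97, 9.86 and 9.93 in neurospheres, 9.55, 9.72 and 9.67 in cultured cells and 8.34, 8.57 and 8.69 in tissue. It rose by 1.39 and 1.12 where Snap25 fell by 6.0 and 9.05, and all 3 of its probe sets rose in both cultures. Dnm2, the ubiquitous dynamin, rose by 0.77 and 0.64 where Dnm1 fell, but of its 7 probe sets 4 rose, 2 did not pass and 1 fell (-0.65 in neurospheres and -0.75 in cultured cells). Erc1, the widely expressed ELKS scaffold set beside Rims1, rose by 0.84 and 1.37 with 1 of its 4 probe sets. The other 3 did not pass, with differences of -0.32 to -0.03 in neurospheres and 0.08 to 0.58 in cultured cells.

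Stx4a (0.62), Bin1 (0.95) and Rab3d (0.89), the broader relatives of Stx1a, Amph and Rab3a, rose in neurospheres and did not pass in cultured cells (0.29, 0.51 and 0.16). Vamp3 (0.09 in neurospheres and 0.51 in cultured cells) and Sypl (0.31 and -0.15) passed in neither. Napa and Synj2 passed only in cultured cells, where they fell by 1.04 and 0.81. Probe sets of other partners also differed from the brightest ones: Bin1 rose in neurospheres with 1 of 3, Rab3d with 2 of 4 in neurospheres and 1 of 4 in cultured cells, and Vamp3 with 3 and 4 of its 5. Of 7 Sypl probe sets 2 rose in each culture and 1 fell in cultured cells, and of 6 Synj2 probe sets 1 rose and 1 fell in neurospheres and 3 fell in cultured cells. Unc13b was the exception in both cultures: it fell by 2.87 in neurospheres and 2.31 in cultured cells, where its neuronal relative Unc13a fell by 1.87 and 2.07. Of the 2 Unc13b probe sets the brighter fell and the other did not pass.

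**Figure D4:**
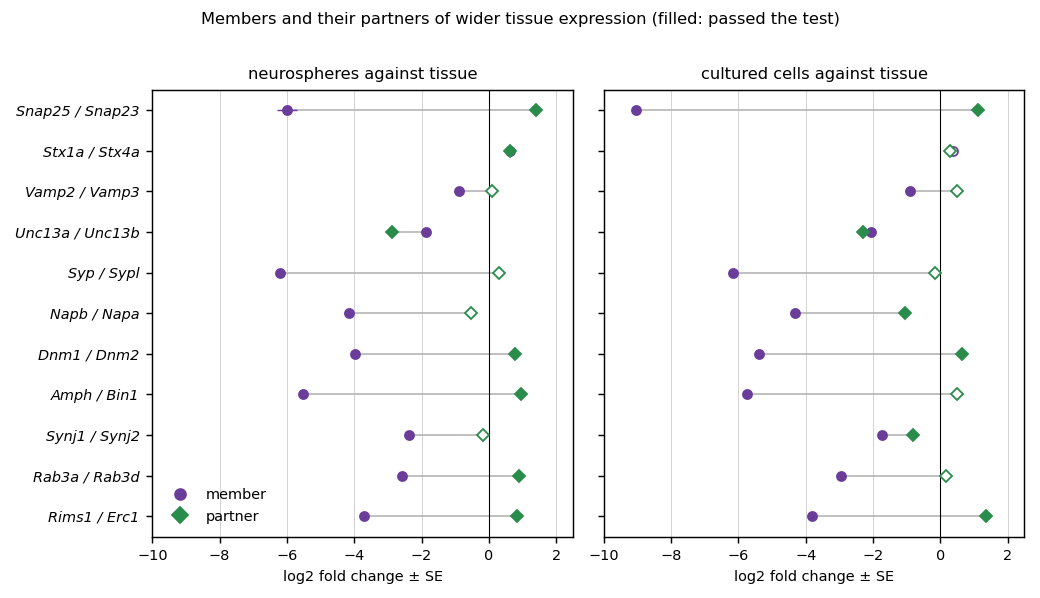
Log2 fold change with its SE (horizontal axis) of the neuronal member (circle) and of its partner of wider expression (diamond) in 11 pairs, brightest probe set of each, in neurospheres against tissue (left) and cultured cells against tissue (right), filled where the gene passed. In 10 pairs the circle lies left of 0, and apart from Unc13b the diamonds lie between -1.04 and 1.39.

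The wider set of vesicle traffic genes outside the list was mixed. Of 99 such genes 91 were measured. In neurospheres against tissue 19 rose, 34 fell and 38 did not pass (median -0.09), shares of 20.9% that rose and 37.4% that fell against 21.7% and 21.0% of all genes. In cultured cells against tissue 11 rose, 38 fell and 42 did not pass (median -0.28), shares of 12.1% and 41.8% against 20.4% and 22.0% of all genes. The share that rose in neurospheres was thus close to that of all genes. The largest falls were in Sh3gl2 (endophilin A1), which fell by 7.05 and 6.59, and in Dnm3, a dynamin of brain and testis, by 6.58 and 6.56. The active zone genes Erc2 and Rims3 fell by 4.83 and 4.81 in neurospheres, and Sncg (gamma-synuclein) and the syntaxin binder Stxbp6 by 4.68 and 4.65 in cultured cells.

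The largest rises among them differed by culture. In neurospheres these were Ptprn (IA-2, a membrane protein of dense-core vesicles), Pcsk1 (a prohormone convertase), Syt17 (1.45) and Sytl4 (granuphilin, 1.40). Ptprn was at 11.07, 9.99 and 9.98 in neurospheres, 8.23, 8.41 and 8.23 in cultured cells and 8.21, 8.06 and 7.83 in tissue, and Pcsk1 at 7.45, 6.39 and 6.72 in neurospheres, 4.52, 4.48 and 4.44 in cultured cells and 4.83, 5.04 and 4.84 in tissue. In both, every neurosphere array lay above all 6 others. Ptprn rose by 2.31 ± 0.27 and Pcsk1 by 1.95 ± 0.24 against tissue (SE; adjusted p = 8.06e-05 and 9.55e-05, limma), while in cultured cells neither passed (0.25 and -0.43).

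In cultured cells the largest rises were Sytl4 (2.03), Syt13 (1.72), Erc1 (1.37) and the exocyst subunit Exoc2 (1.21). Sytl4 and Syt13 each rose with 1 of 2 probe sets. In neurospheres against cultured cells 15 of the 91 rose (16.5%) and 8 fell (8.79%), with a median of 0.11. Ptprn (2.05), Pcsk1 (2.37), Stxbp6 (2.32) and Sncg (1.96) were higher in neurospheres, and Sytl2 (-1.83), the lowest of the 91 and named after its values were seen, Syt13 (-1.63) and Sytl4 (-0.62) were lower.

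The members had 100 probe sets in all, and 27 members had more than 1. Of the 100, 72 fell and 4 rose in neurospheres against tissue, where 18.8% of all 34945 probe sets fell and 24.3% rose. In cultured cells against tissue 72 fell and 3 rose, where 19.7% of all fell and 24.0% rose, and in neurospheres against cultured cells 12 rose and 4 fell, where 8.14% of all rose and 9.39% fell. In each comparison with tissue, 12 of those 27 members had probe sets that fell, others that did not pass and none that rose. In these members, as for Bsn, the call depended on the probe set. Examples of probe sets that did not pass, in neurospheres and cultured cells, were 1 of 2 for Vamp1 (-0.28 and -0.18), for Syp (-0.05 and -0.21) and for Dnm1 (-0.12 and -0.46), each dimmer than the probe set described above. Probe sets that passed in opposite directions were found for Synj1 in both comparisons with tissue and for Syt1 in cultured cells against tissue.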

How the data were processed

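RNA of 3 neurosphere, 3 cultured cell and 3 tissue samples had been hybridised to arrays. The deposited values are log2 signals, summarised by the authors with RMA (Affymetrix Expression Console). MAS5 is also listed in the labels, and no version is stated. Among 45101 probe sets there were 64 controls, and 34945 named 1 gene, 932 several and 9160 none. Each of the 18193 genes was represented by its brightest probe set over the 9 arrays. Array medians were 6.15 to 6.27, and no filter on low signals was applied. The number of arrays limits the precision.

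Groups were compared pairwise on 6 arrays by 2-sided moderated tests of limma (version 3.58.1, R version 4.3.3). Alternatives were the t-test of the study's methods, other scalings, probe set rules, filters, priors and fold thresholds, a block for the replicate number, and fits without each array. Only the limma fit was tested on simulated data. Symbols, and promoter windows, came from RefSeq tables of GRCm38.p6. The genes, lists and tests were chosen with earlier results of these data known. Described in full were the member with the largest change in neurospheres in each role group, members that went against their group, members that passed between the cultures without overlap, members that passed nowhere, and of the wider set the pairs and the 4 largest rises and falls in each comparison with tissue. Genes of these lists without a value were not analysed here.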

Additional observations from a re-analysis of the deposited data

How the results depend on the processing

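Of 2340 single-gene values of the members under alternatives, 2279 kept their direction and their side of the threshold, 45 fell short of it, 15 newly passed and 1 reversed: Syt1 in cultured cells against tissue, at 0.13 with the mean of its probe sets. The counts of falls against tissue moved by over 1.5 times only when the dimmest 40% of genes were left out. This removed 17 of the 42 members from the test: 22 of the remaining 25 fell in neurospheres and 23 of 25 in cultured cells. Of all 10916 genes kept, 2540 fell in neurospheres and 2667 in cultured cells. That filter used the mean over all 9 arrays, so some members low in both cultures, such as Chgb, stayed only through their tissue signal. The member counts after it therefore give no separate support for the falls. The count of rises rests on 1 gene in each comparison with tissue. In neurospheres (1, Stx1a) it was 0 with arrays centred on the more highly expressed genes, 0 at a fold over 2, 2 with no fold threshold and 3 with any probe set of a gene, an alternative chosen after seeing the data. In cultured cells (1, Rab3b) it was 2 with hybridisation controls, 2 with no fold threshold, 3 with any probe set and 0 without the dimmest genes, among which Rab3b lay. In neurospheres against cultured cells 6 members fell with no fold threshold, against 3.

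Leaving out 1 array at a time gave 34 to 36 falls and 0 to 1 rises in neurospheres against tissue, 35 to 37 falls and 1 to 1 rises in cultured cells against tissue, and 9 to 10 rises and 2 to 3 falls in neurospheres against cultured cells. Deviations of samples with the same replicate number had correlations of -0.093 to -0.059, 0.069 to 0.206 and -0.19 to 0.04 in the 3 comparisons. In cultured cells against tissue, samples with different numbers had -0.173 to 0.085, so there the same-numbered samples tended to be higher. With 3 arrays a group these values cannot settle whether the numbers pair samples. The replicate block gave 36 falls and 1 rise against tissue in each culture and 10 rises and 3 falls between the cultures, and changed no call of a member. Centring on hybridisation controls moved the median of all genes by 0.21 in cultured cells against tissue and by -0.15 in neurospheres against cultured cells, and quantile normalization moved it by 0.12 in cultured cells against tissue. With hybridisation controls 59.9% of calls over all genes were rises in cultured cells against tissue, against 48.0% as reported, and 35.0% in neurospheres against cultured cells, against 50.3%. The cause of these changes was not tested. Low signals in the cultures limit the size of the largest falls, and 3 arrays a group limit the calls near a fold of 1.5.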
